A study of Homo sapiens with 16 samples.

Results

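Trimethylated lysine 27 of histone H3 (H3K27me3) was mapped inside protein-coding genes of THLE-2 cells, away from the ends of every gene. A gene-body peak here is a peak of the H3K27me3 replicate 1 list on chromosomes 1 to 22 and X that meets 4 conditions: it overlaps a replicate 2 peak, is shorter than 5000 bp, lies wholly inside a RefSeq GRCh38 coding gene, and is more than 2 kb from both ends of every coding gene. There were 10043 gene-body peaks among the 46173 peaks of the replicate 1 list (21.8%) and among 172991 peaks in all 8 peak lists of the series. Because these peaks were chosen by the peak calls and widths of the 2 H3K27me3 lists, their widths, folds and counts are given as descriptions with no test. The peak lists of EZH2 and JARID2 played no part in the choice.

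The study used chromatin immunoprecipitation with sequencing (ChIP-seq) in 2 liver-derived lines, THLE-2, labelled normal liver epithelial cells, and HepG2, labelled liver carcinoma cells. The immunoprecipitated (IP) libraries were H3K27me3, EZH2 and JARID2 in THLE-2 and JARID2 in HepG2, with 2 biological replicates of each per the series' design text, and each had its own input library. The labels give no treatment, and each line is a single cultured line, so replicates cover the spread within a line and not between donors. After the authors' filter the H3K27me3 libraries held 39047005 and 38091806 IP tags, the EZH2 libraries 29593777 and 32444241 and the 4 JARID2 libraries 7945155 to 14627883. They gave 46173 and 90461 peaks for H3K27me3, 2081 and 3637 for EZH2 and 4075 to 15687 for JARID2. The assay measured no RNA, so the identity of the line could not be checked by expression. Of 8 hepatocyte markers, ALB (serum albumin) held 1 gene-body peak and HNF4A (a hepatocyte transcription factor) held 4, while APOB, SERPINA1, CYP3A4 and CPS1 held 0. APOA1 has no sequence more than 2 kb from a gene end and could hold none. TTR has 2.94 kb of such sequence and held none, but H3K27me3 peaks covered 46.7% of the gene in replicate 1 and 35.8% in replicate 2.

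H3K27me3 is laid down by Polycomb repressive complex 2, in which EZH2 is the catalytic methyltransferase and JARID2 an accessory subunit that helps bring the complex to chromatin. The mark is best known from the promoters of silent developmental genes, which often have many CG dinucleotides, and it can also spread over whole silent genes and the DNA between them. In a transcribed gene body, elongating RNA polymerase is accompanied by trimethylation of lysine 36, which the complex tolerates poorly on the same histone tail. Gene-body H3K27me3 is therefore usually found in genes that a cell type does not use.

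Some gene-body peaks lay over an alternative promoter inside the gene. These sequences are shown because 3 of the 10 gene-body peaks ranked highest by fold in both lists lay over such a promoter. Each is a RefSeq GRCh38.p14 window from 250 bases before to 50 bases after a transcription start, read 5′ to 3′ on the gene's strand, and every CG dinucleotide is in capitals. The OLFM3 window is chr1:101846939-101847238 on the minus strand, the ESRRG window chr1:216723380-216723679 on the minus strand and the PDZRN3 window chr3:73569466-73569765 on the minus strand.
OLFM3: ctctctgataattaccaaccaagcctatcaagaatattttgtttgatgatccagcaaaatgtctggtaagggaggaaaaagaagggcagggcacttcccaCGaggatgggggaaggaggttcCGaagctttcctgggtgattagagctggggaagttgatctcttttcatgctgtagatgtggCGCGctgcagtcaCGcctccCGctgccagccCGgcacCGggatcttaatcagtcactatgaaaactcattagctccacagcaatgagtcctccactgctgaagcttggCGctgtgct
ESRRG: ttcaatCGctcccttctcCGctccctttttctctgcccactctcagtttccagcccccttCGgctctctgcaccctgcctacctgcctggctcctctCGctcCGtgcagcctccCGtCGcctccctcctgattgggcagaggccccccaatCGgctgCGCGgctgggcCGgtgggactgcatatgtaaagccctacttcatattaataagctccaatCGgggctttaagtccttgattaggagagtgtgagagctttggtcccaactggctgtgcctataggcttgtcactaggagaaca
PDZRN3: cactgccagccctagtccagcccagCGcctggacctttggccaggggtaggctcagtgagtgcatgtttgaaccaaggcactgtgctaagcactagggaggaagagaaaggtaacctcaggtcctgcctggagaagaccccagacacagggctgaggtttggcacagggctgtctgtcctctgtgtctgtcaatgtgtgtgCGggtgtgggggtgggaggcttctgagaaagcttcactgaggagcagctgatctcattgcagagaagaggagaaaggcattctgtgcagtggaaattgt
The OLFM3 window held 9 CG dinucleotides, the ESRRG window 12 and the PDZRN3 window 2. Over the 86 internal promoter windows of coding genes under a gene-body peak the median was 5, against 8 over 3988 internal windows without one and 23 over 18058 windows at gene ends. All 3 counts lay below that gene-end median, and those of OLFM3 and PDZRN3 also below its lower quartile of 10. Among the 86 windows under a gene-body peak the quartiles were 3 and 8. OLFM3 and ESRRG lay above the upper of these and PDZRN3 below the lower. CG reads the same on both strands, and at least 1 was present in 95.3% of internal windows under a gene-body peak, 96.5% of internal windows without one and 98.4% of gene-end windows.

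The OLFM3 peak (chr1:101846374-101847634) ranked first among gene-body peaks by the worse of its 2 fold ranks, with folds of 25.1 in replicate 1 and 25.46 in replicate 2. OLFM3 encodes a secreted olfactomedin-domain protein. The peak covered a start 150.0 kb inside the 194.0 kb gene, and EZH2 had no peak there in either replicate. In ESRRG, which encodes an orphan nuclear receptor, the peak at chr1:216722943-216725241 reached 18.75-fold in replicate 1 and 24.25-fold in replicate 2, and lay 414.0 kb from the 5′ end of a 634.0 kb gene. EZH2 had no peak under it, but had peaks at an end of ESRRG in both replicates. In PDZRN3, a ubiquitin ligase gene, the peak at chr3:73568989-73571208 reached 24.14-fold in replicate 1 and 18.6-fold in replicate 2. Folds are the authors' MACS values of IP over local input background and are compared here only within a list.

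Alternative promoters were nevertheless a small share of the whole. Of the 10043 gene-body peaks, 76 (0.757%) overlapped an internal promoter of a coding gene and 79 a lncRNA promoter. Counted from the promoters, 83 of 3807 internal promoter stretches of coding genes lay under a gene-body peak (2.18%). The share for other interior stretches of the same size was not computed, so whether internal promoters were marked more often was not tested. Gene-body peaks over internal promoters had a median fold of 10.14 in replicate 1, against 9.66 for the other gene-body peaks, and of 8.82 in replicate 2, against 8.89, so the order turned between lists. Only 4 of the 100 best-ranked gene-body peaks lay over one. Across the 6 EZH2 and JARID2 libraries, peaks over internal promoters were overlapped 1.14 percentage points more often on average than other gene-body peaks (SD 1.93 over 6 libraries, higher in 4 of 6). An exact two-sided sign-flip permutation test over the libraries gave p = 0.219, so the mean difference was within the spread between libraries. The mean difference was 0.459 points without EZH2 replicate 2, which overlapped 4 of the 76 peaks, and 0.432 points when the summit of the H3K27me3 peak had to lie in the other peak. Both EZH2 libraries were higher, at 1.32% against 0.291% in replicate 1 and 5.26% against 0.722% in replicate 2. The JARID2 differences were −0.642 and 2.09 points in THLE-2 and 0.04 and −0.211 points in HepG2. The test mixes these targets, so it cannot decide on EZH2 alone.

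Gene-body peaks also enclosed microRNA hairpins. Of 779 annotated hairpins in gene interiors, 8 lay wholly inside a gene-body peak (1.03%). Gene interiors held 8.5 gene-body peaks per Mb, with a median width of 1582 bp. The share for interior sequence at large was not computed, so 1.03% does not show that hairpins were marked more often than other sequence. The mature sequences of the hairpins in the genes FSTL4 and SLIT3 are shown because these are among the 10 host genes with the most gene-body peaks. Capitals mark the seed, bases 2 to 8, and the sequences are from RefSeq (GRCh38.p14).
hsa-miR-1289: uGGAGUCCaggaaucugcauuuu
hsa-miR-585-3p: uGGGCGUAucuguaugcua
hsa-miR-585-5p: cUAGCACAcagauacgcccaga
The 3 seeds differ. The MIR1289-2 hairpin (chr5:133427596-133427706, minus strand) lay in an FSTL4 peak of 9.11-fold in replicate 1 and 7.51-fold in replicate 2. The MIR585 hairpin (chr5:169263601-169263694, minus strand) lay in a SLIT3 peak of 12.07-fold and 12.5-fold. The other 6 were MIR921 in FAM78B, MIR4780 in SMYD1, MIR4270 in COLQ, MIR3943 in HECW1, MIR4301 in DRD2 and MIR4493 in GRAMD1B. MIR4780 is annotated on the strand opposite to its host gene SMYD1.

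The 10043 peaks lay in 1932 host genes, 9.67% of 19974 coding genes. They were short and clustered. Their median width was 1582 bp in replicate 1 (quartiles 1185 and 2276), and the replicate 2 peak over them had a median width of 1608 bp. The median fold was 9.66 in replicate 1 (range 4.25 to 25.78) and 8.89 in the replicate 2 partner (range 3.03 to 26.67). The Spearman correlation of fold between the lists was 0.186 over these peaks, so the rank of a single peak carried over only weakly. The authors' false discovery rate was listed as 100% for every gene-body peak, although all passed the MACS p cutoff of 1e-05. Neighbouring gene-body peaks of a gene lay a median of 3785 bp apart, and 55.0% of 8249 such gaps were under 5000 bp. For 811 gene-body peaks (8.08%) the replicate 2 partner was itself at least 5000 bp wide, so a run of short peaks in one list can be a single wide domain in the other.

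A minority of genes carried most of the peaks. Of the 1932 host genes, 639 (33.1%) held a single gene-body peak, the median was 2, and 277 genes with 10 or more held 53.5% of the 10181 peak-gene pairs. The 100 genes with the most held 31.0%. FSTL4, a follistatin-like gene on chromosome 5, held 78 gene-body peaks over 646.0 kb, and replicate 1 peaks of any width covered 45.2% of the gene, replicate 2 peaks 53.6%. KALRN, a guanine nucleotide exchange factor gene active in neurons, held 74. ITGA9, the integrin alpha 9 gene, held 62 and was covered to 47.6% in replicate 1 and 61.5% in replicate 2. The rest of the leading 10 were TENM2 (teneurin 2) with 60, SLIT3 (an axon guidance ligand) with 60, NPAS3 (a neuronal transcription factor) with 58, PLXNA4 (a semaphorin receptor) with 57, KCNMA1 (a calcium-activated potassium channel) with 56, RPH3A (rabphilin, of synaptic vesicles) with 55 and GRIK4 (a kainate glutamate receptor subunit) with 52. In all 10 genes both lists held many peaks by the same rule without the overlap condition, from 57 to 97 in replicate 1 and from 73 to 175 in replicate 2.

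**Figure D1:**
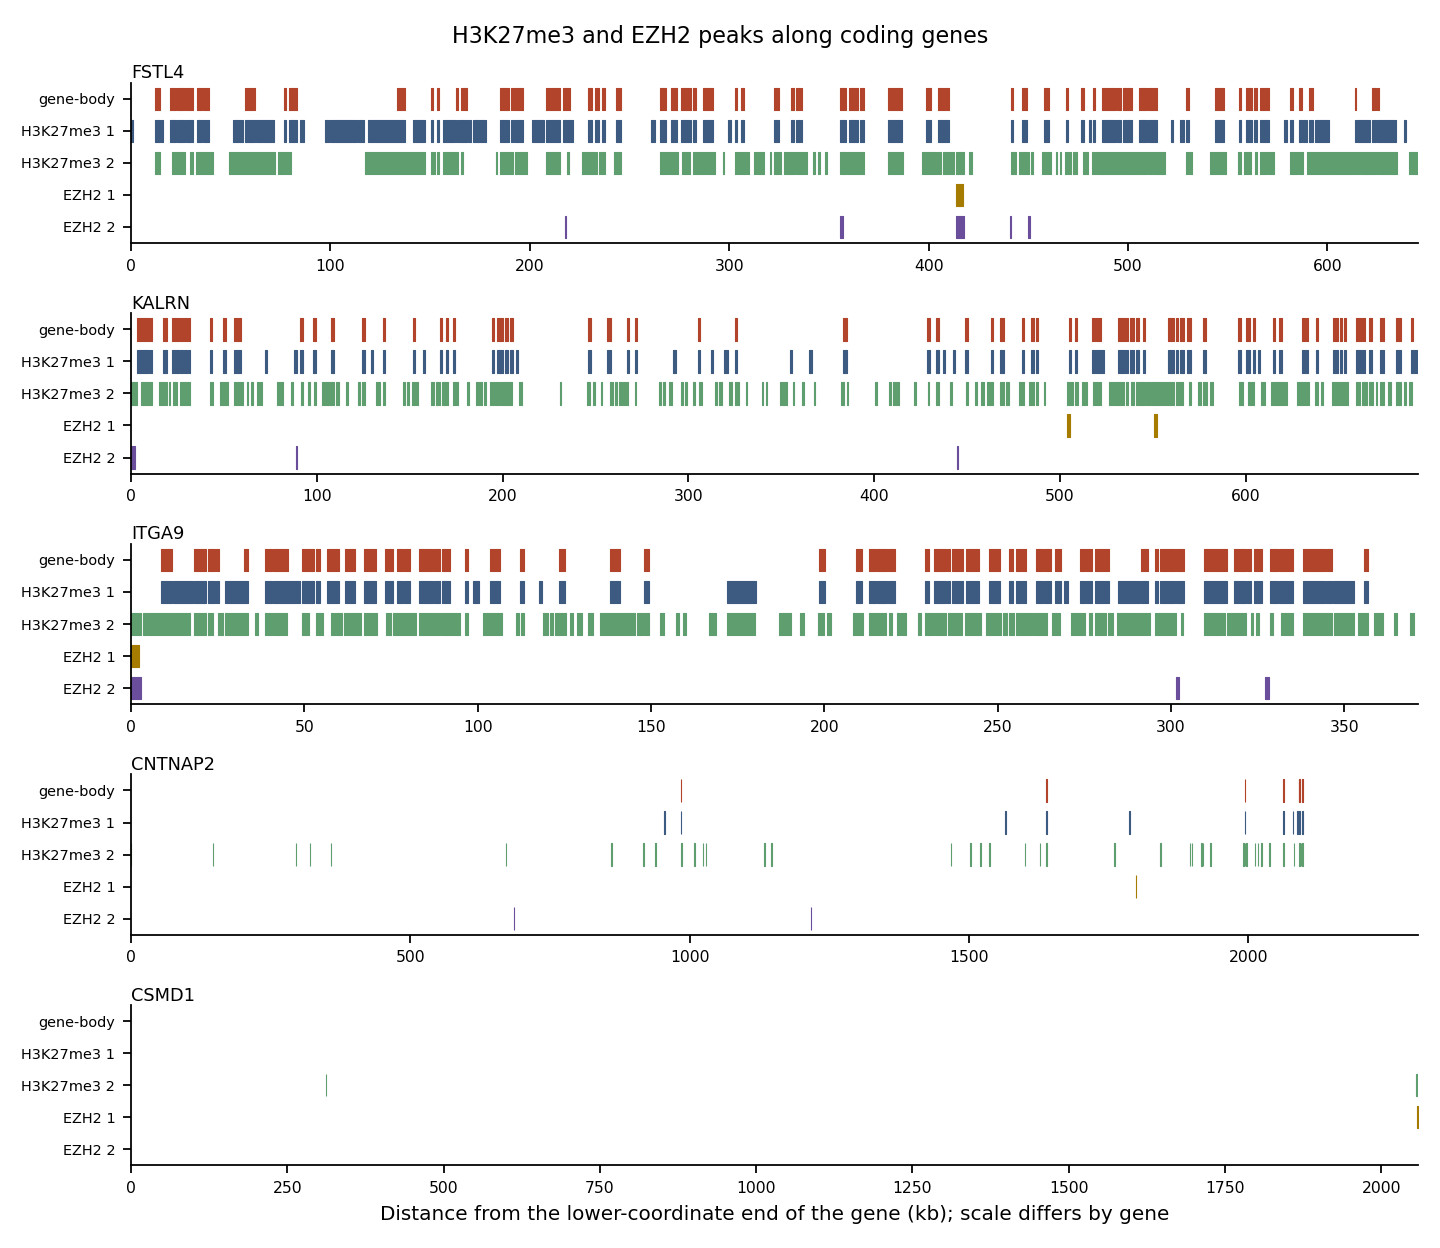
Peaks along 5 coding genes against distance from the lower-coordinate end of the gene (kb, a different scale for each gene); rows show gene-body peaks, all H3K27me3 peaks of replicates 1 and 2, and EZH2 peaks of replicates 1 and 2. FSTL4 (78 gene-body peaks), KALRN (74) and ITGA9 (62) were marked along their length, while CNTNAP2 held 7 and CSMD1 held 0.

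The map of peaks along genes shows how EZH2 sat beside this pattern. In FSTL4 both EZH2 lists had a peak well inside the gene, spanning 413.695 to 417.434 kb in replicate 1 and 413.74 to 417.856 kb in replicate 2 from the lower-coordinate end. The H3K27me3 replicate 2 list had a peak there, at 413.541 to 417.956 kb, and the replicate 1 list had none, so it is no gene-body peak. In ITGA9 the EZH2 peaks of both replicates stood at the lower-coordinate end, reaching 2.254 kb into the gene in replicate 1 and 2.816 kb in replicate 2, and the run of H3K27me3 extended over the rest of the gene.

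Ranked by the worse of the 2 fold ranks, the leading peaks lay in other genes than those with the most peaks. After OLFM3 came B3GAT2, a glucuronyltransferase gene with folds of 21.97 in replicate 1 and 21.06 in replicate 2, and ANKRD34B, with 19.79 and 23.04. ESRRG followed, then KL, the gene of the hormone co-receptor klotho, with 18.39 and 19.4, and GABBR2, a subunit of the GABA-B receptor, with 22.87 and 18.99. TNFRSF13B, a B cell receptor of the TNF receptor family, had 18.97 and 18.99 from its only gene-body peak. PDZRN3, CACNA1C (an L-type calcium channel) and DCHS2 (a large cadherin) completed the 10. Of these 10 genes GABBR2 held 36 gene-body peaks, DCHS2 23 and CACNA1C 21, and the other 7 held 1 to 9.

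Per length, the densest host genes with at least 5 gene-body peaks were short. OVCH2, an ovochymase gene of 27.8 kb, held 7 gene-body peaks or 294.0 per Mb of interior, meaning gene sequence more than 2 kb from every coding gene end. SCN3B, a sodium channel beta subunit of 25.4 kb, held 6 (280.0 per Mb) and HABP2, a plasma protease gene, 9 (266.0 per Mb). SLFN11 held 5 (259.0 per Mb) and GALR1, a galanin receptor, 6 (249.0 per Mb). The replicate 1 list covered 28.9% to 69.6% of these 5 genes and the replicate 2 list 35.8% to 67.1%. A ranking by density with a floor of 5 peaks itself favours genes with little interior. As a class, genes of 10 to 30 kb held 5.99 gene-body peaks per Mb of interior, against 8.45 for all coding genes.

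Host genes were long, which the rule itself favours, since a peak needs room away from both ends. Their median length was 91.0 kb, against 24.2 kb for all coding genes. The share of coding genes that held a gene-body peak was 0.318% under 10 kb (18 of 5658 genes), 5.23% from 10 to 30 kb, 12.9% from 30 to 100 kb, 22.7% from 100 to 300 kb, 41.7% from 300 to 1000 kb and 62.3% over 1000 kb (43 of 69 genes). The density per Mb of gene interior takes out most of this room, and its range was smaller. It was 2.16 peaks per Mb under 10 kb (exact 95% Poisson interval 1.28 to 3.42), 5.99 from 10 to 30 kb, 7.8 from 30 to 100 kb, 9.19 from 100 to 300 kb and 9.68 from 300 to 1000 kb (9.35 to 10.0). Over 1000 kb it was 5.32 (4.87 to 5.81). Intervals here cover counting error only and treat clustered peaks as independent. Genes over 300 kb held 1.2 times the density of genes under 100 kb. Without the overlap condition that ratio was 1.27 in the replicate 1 list alone and 1.57 in the replicate 2 list alone.

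**Figure D2:**
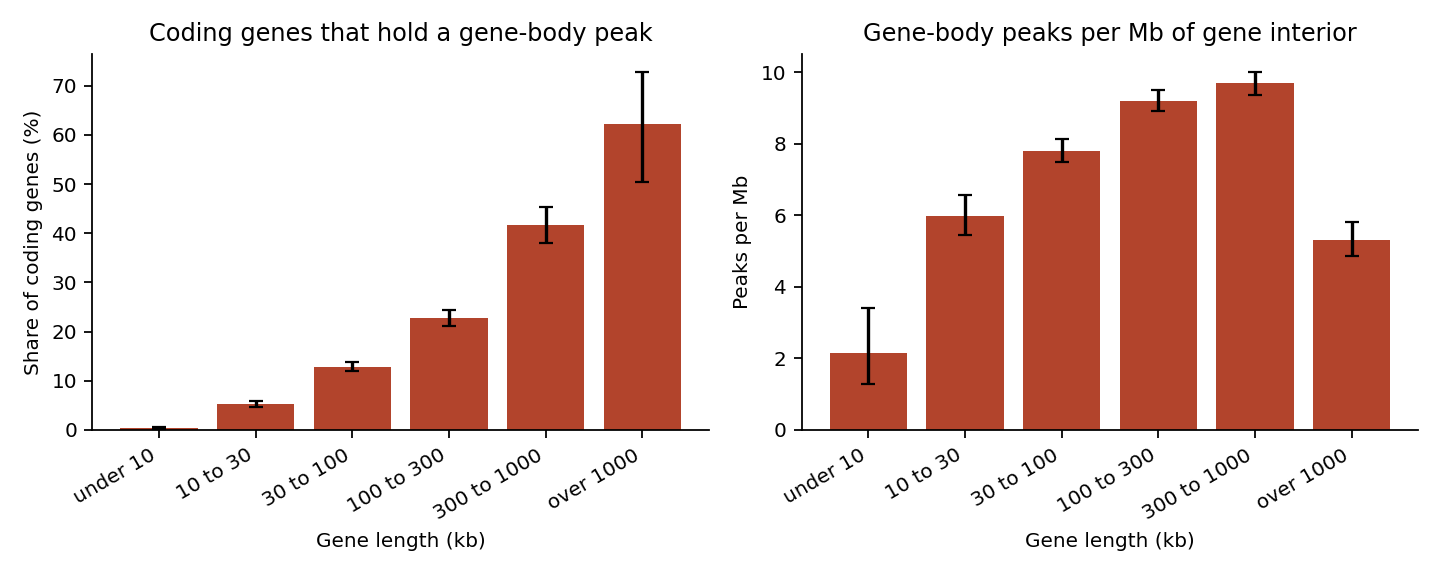
Left, the share of coding genes (%) in each gene-length bin (kb) that held a gene-body peak, with Wilson 95% intervals; right, gene-body peaks per Mb of gene interior, with exact Poisson 95% intervals. The share climbs to 62.3% over 1000 kb, while the density is highest from 300 to 1000 kb at 9.68 per Mb and lower over 1000 kb at 5.32.

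Very long genes were split between marked and unmarked. Of the 69 coding genes over 1000 kb, 26 held no gene-body peak, and of 771 genes over 300 kb, 295 held no peak of the rule in either list taken alone. Among the 10 longest coding genes, RBFOX1, DMD (dystrophin), CSMD1, MACROD2 and LRP1B held 0. DLG2, a synaptic scaffold gene, held 10, PTPRD, a receptor phosphatase, 9, CNTNAP2, a neurexin-family gene, 7, and EYS and CTNNA3 4 each. In DMD and LRP1B neither list had a peak away from the ends. TENM2, at 1290.0 kb, stood apart from these with 46.8 gene-body peaks per Mb, against 4.61 in DLG2 and 3.04 in CNTNAP2.

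The same genes were mostly marked in both replicates. Among 3164 genes with at least 100 kb of interior, 1902 had no peak by the rule in either list taken alone, 961 had peaks in both, 283 in replicate 2 only and 18 in replicate 1 only. The Spearman correlation of peaks per Mb between the lists was 0.894 over these genes, which include the many with 0 in both lists, share the annotation, and come from 2 cultures of 1 line. In the whole genome 72.1% of replicate 1 peaks overlapped a replicate 2 peak. The replicate 2 list was longer throughout, and the rule without the overlap condition found 26914 peaks in it against 14072 in replicate 1.

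**Figure D3:**
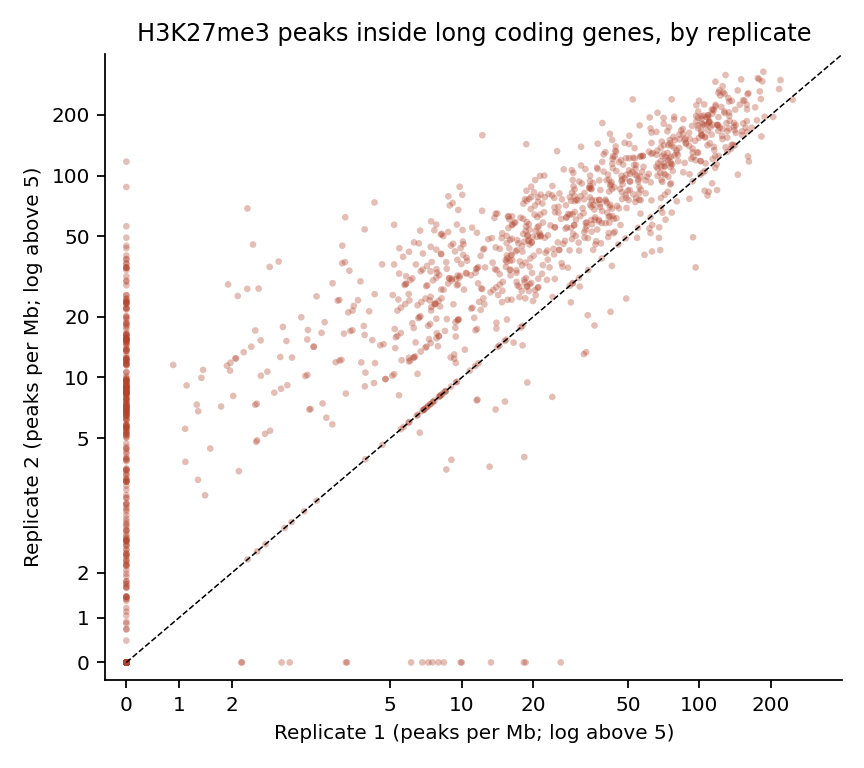
Each point is 1 of 3164 coding genes with at least 100 kb of interior, by H3K27me3 peaks per Mb of interior in replicate 1 (x) and replicate 2 (y), both axes linear below 5 and logarithmic above; the dashed line marks equal densities. Most marked genes lie above the line, and 283 genes had peaks in replicate 2 only against 18 in replicate 1 only.

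The peaks did not stop at the gene. For 523 host genes with at least 5 gene-body peaks and at least 50 kb of noncoding flank within 100 kb, the pooled density was 40.7 per Mb in the interior, where the genes were chosen for their peaks, and 46.1 short shared peaks per Mb in the flanks, where a short shared peak is any replicate 1 peak under 5000 bp that overlaps replicate 2. Gene by gene, the interior was denser than the flank in 362 of the 523, and in 64 the flank held none. Over the genome, with each base counted once, gene interiors held 8.5 gene-body peaks per Mb and intergenic sequence 11.7 short shared peaks per Mb. Widths and folds were also close, with median folds in replicate 1 of 9.66 in gene bodies, 9.66 between genes and 9.72 at gene ends. By chromosome the density of gene-body peaks was highest on chromosome 5, at 14.7 per Mb of interior (exact Poisson interval 13.9 to 15.7), and lowest on X, at 0.833 (0.595 to 1.13). On X the replicate 2 list alone held 5.48 per Mb and the replicate 1 list alone 1.06, so both lists were low there.

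The function of host genes was read from 19 gene lists, each set beside all coding genes (9.67% hosts) and beside the share of hosts among coding genes of the same length bins. The lists were chosen with earlier results of these data known, so their shares are descriptions and no evidence for a functional theme. Genes for excitable membranes held gene-body peaks more often than their length bins. Of 135 genes listed as voltage-gated channels, 48 were hosts (35.6%, against 16.4% for their length bins). They were led by KCNMA1 with 56 peaks, KCND3 with 41 and KCNIP1, which encodes a channel-interacting protein, with 34. Of 100 neurotransmitter receptor genes, 36 were hosts (36.0%, against 16.5%), led by GRIK4 with 52, GABBR2 with 36 and GRID1, a glutamate receptor family gene, with 30. The channel genes held 463 peaks in all, against 162.0 that coding genes of their lengths would hold at the common density of each bin. Of the neuronal marker genes looked up apart from these lists, CNTNAP2 held 7 gene-body peaks and RBFOX3 2, while SYT1, SNAP25 and GRIN2A held 0, although SYT1 has 584.0 kb of interior and GRIN2A 426.0 kb.

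Adhesion and guidance genes were also marked above their length bins. Of 49 cadherin and protocadherin genes outside the chromosome 5 clusters, 21 were hosts (42.9%, against 21.5%), led by CDH13 with 30, DCHS2 with 23 and CDH20 with 19. Of 72 axon guidance genes, 21 were hosts (29.2%, against 19.7%), led by SLIT3, PLXNA4 and the ephrin receptor gene EPHB1 with 24. Of 53 contactin, neurexin and other synaptic adhesion genes, 21 were hosts (39.6%, against 31.0%), led by TENM2, DSCAML1 with 48 and NRXN3 with 30. Axonemal dyneins, the motors of motile cilia, had 9 hosts of 19 (47.4%, against 26.0%), led by DNAH8 with 22, DNAH3 with 9 and DNAH10 with 8. Phosphodiesterases and adenylyl cyclases, which break down and make cyclic nucleotides, had 11 of 33 (33.3%, against 25.1%), led by PDE1C with 30, PDE4D with 26 and PDE8B with 13.

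Blood, muscle and hepatocyte genes followed. Of 56 blood and immune genes, a list of leukocyte surface receptors that also holds adaptors, exchange factors and transcription factors, 19 were hosts (33.9%, against 11.4%). These genes were short, with a median of 30.1 kb, and the leading hosts were not receptors. They were led by SKAP1, a T cell adaptor gene with 29 peaks, IKZF1, a lymphoid transcription factor gene with 16, and DOCK2, a leukocyte guanine nucleotide exchange factor gene with 10. Sarcomere and dystrophin complex genes had 13 hosts of 49 (26.5%, against 18.1%), led by the ryanodine receptor gene RYR3 with 46, then RYR2 and MYBPC1 with 4 each. The list held 77 peaks in all, where its lengths would give 82.4. In the short cardiac myosin genes MYH6 and MYH7, near-identical neighbours whose reads can be hard to place and which were named after their values were seen, 4 and 3 gene-body peaks lay in 26.3 and 22.9 kb. Of 60 hepatocyte function genes, 8 were hosts (13.3%, against 8.0%). With 1 list alone the count was 14 in replicate 1 and 19 in replicate 2, and the excess over the length bins was then 13.8 and 18.8 percentage points, against 5.34 with both lists. They were led by TF (transferrin) with 9 gene-body peaks, and APOH, which encodes a plasma apolipoprotein, held 2.

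Collagens and laminins, ADAM family genes, adhesion receptors and synaptic scaffolds had shares of hosts close to their length bins. Each of these lists held fewer peaks in all than its lengths would give. The gap was smaller for collagens and laminins, with 61 against 78.4, and for adhesion receptors, with 35 against 42.1, than for scaffold and ADAM genes. Collagen and laminin genes had 13 hosts of 56 (23.2%, against 20.4%), led by COL9A1 with 10, LAMA1 with 9 and COL19A1 with 7. ADAM and ADAMTS family genes, not all of which encode active proteases, had 9 of 44 (20.5%, against 17.7%). They were led by ADAMTSL1 with 10, ADAMTS19 with 4 and ADAM23 with 3, and held 26 peaks in all where their lengths would give 52.4. Adhesion G protein-coupled receptors had 5 of 28 (17.9%, against 18.4%), led by ADGRV1 with 21, ADGRB3 with 8 and ADGRE1 with 3. Receptor tyrosine phosphatases and synaptic scaffolds had 15 of 51 (29.4%, against 31.0%), led by ERC2 with 14, MAGI2 with 13 and DLG2 with 10, and 85 peaks where their lengths would give 194.0. Common fragile site genes, which are very long, had 14 of 29 (48.3%, against 55.9%) and 101 peaks where their lengths would give 239.0, led by PDE4D with 26, MAGI2 with 13 and RORA with 13.

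Housekeeping lists were almost free of gene-body peaks. Of 60 cell cycle and DNA replication genes 1 was a host (1.67%, against 9.74% for their length bins), namely CCND2, the cyclin D2 gene, with 3 peaks. Of 109 splicing factor and hnRNP genes 1 was a host (0.917%, against 6.48%), DDX25, which encodes a testis RNA helicase and held 5. Of 90 cullin, proteasome and E2 genes 1 was a host (1.11%, against 8.62%), PSMA8, which encodes a testis-specific proteasome subunit and held 3. Zinc finger genes named ZNF had 14 hosts of 509 (2.75%, against 8.38%), led by ZNF831 with 9, ZNF704 with 8 and ZNF503 with 8. The shares of hosts in all 19 lists are descriptions with no test. Among all coding genes, 1932 were hosts with both lists, 2251 with replicate 1 alone and 2985 with replicate 2 alone.

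**Figure D4:**
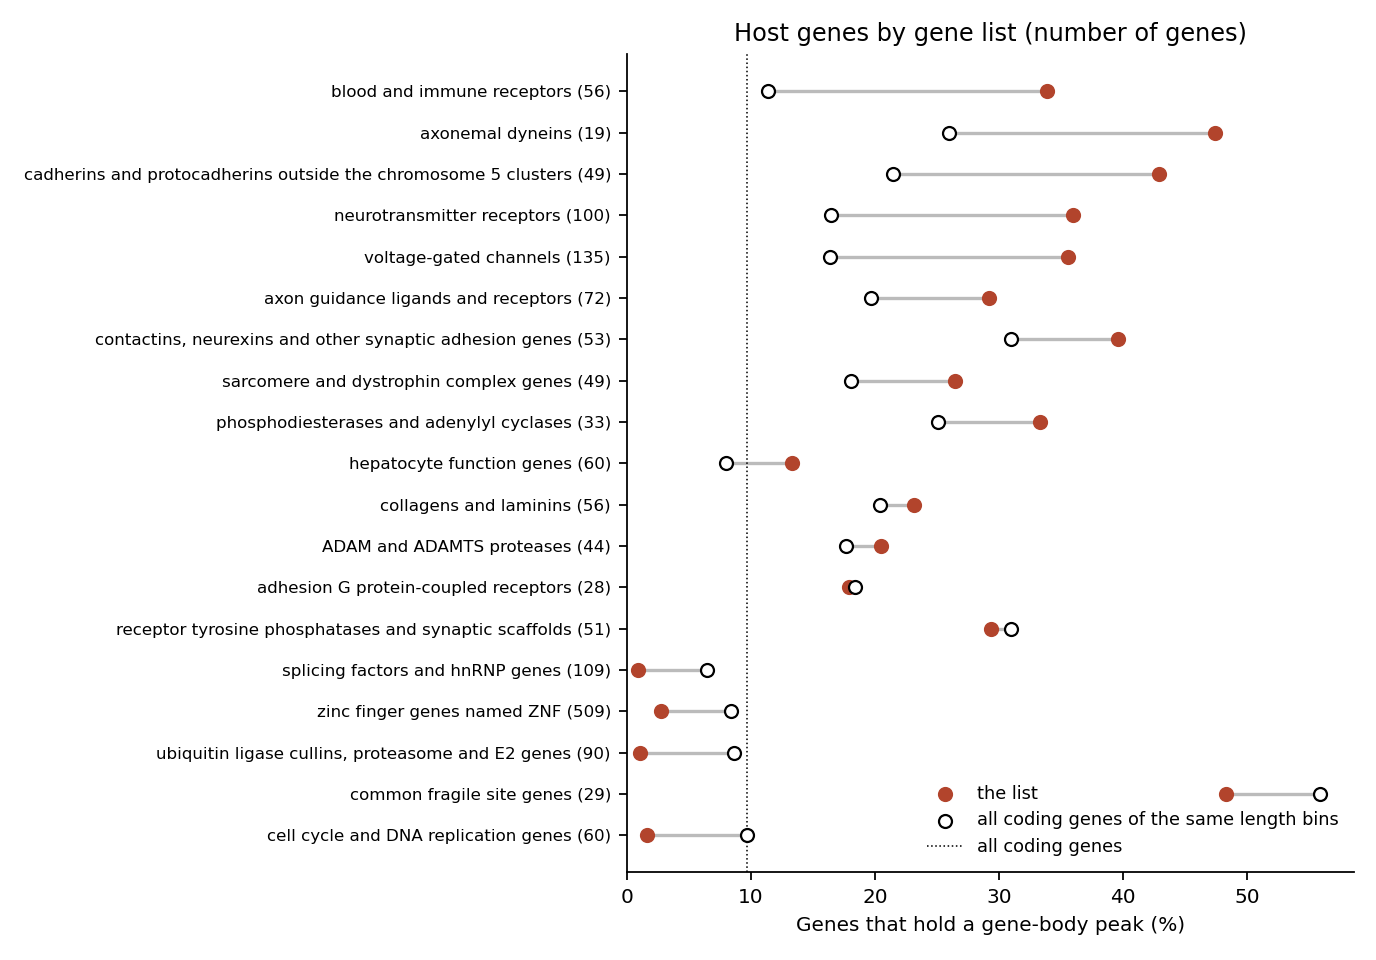
Filled points show the share of genes (%) in each of 19 lists that held a gene-body peak, open points the share among all coding genes of the same length bins, and the dotted line the 9.67% of all coding genes. The list labelled blood and immune receptors lies at 33.9% against 11.4%, and the cell cycle, splicing and proteasome lists lie at 0.917% to 1.67%, below their length bins.

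Few gene-body peaks lay under a peak of the complex itself. EZH2 peaks overlapped 0.299% of gene-body peaks in replicate 1 (30 peaks, Wilson 95% interval 0.209 to 0.426) and 0.757% in replicate 2 (76 peaks, 0.605 to 0.946). Over all 46173 H3K27me3 replicate 1 peaks the shares were 0.448% and 0.964%. THLE-2 JARID2 peaks overlapped 0.637% and 0.558% of gene-body peaks, against 0.695% and 0.544% of all replicate 1 peaks. HepG2 JARID2 peaks overlapped 1.28% and 0.209%, against 1.17% and 0.269%. In all, 9680 gene-body peaks (96.4%) lay under no peak of the 6 libraries. That share was not computed for all replicate 1 peaks, so 96.4% does not set gene-body peaks apart. The EZH2 lists held far fewer peaks than the H3K27me3 lists, and a gene-body peak without an EZH2 peak is one where MACS called none.

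Gene-body peaks under a peak of both EZH2 replicates numbered 4, of 102 under a peak of either. They were in SOX5 (chr12:23948132-23951182), which encodes a SOX transcription factor, SLFN12L (chr17:35494263-35498908), a Schlafen family gene, LIN28B (chr6:104950610-104953572), which encodes a repressor of let-7 microRNA maturation, and KLF8 (chrX:56231622-56234388), which encodes a Kruppel-like factor. Their H3K27me3 folds were 7.85 to 11.99 in replicate 1 and 8.11 to 19.48 in replicate 2. These 4 were named after their values were seen. The share under both EZH2 lists was not computed for all replicate 1 peaks, so the count does not set gene bodies apart.

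Gene-body peaks were set against short shared H3K27me3 peaks elsewhere in the 6 EZH2 and JARID2 libraries, which played no part in the rule. These libraries are replicate pairs of 3 kinds, and the test counts them as 6 separate units. Against 1432 peaks within 2 kb of a gene end, the mean share overlapped was lower by 0.214 percentage points (SD 0.566 over 6 libraries, higher in 3 of 6), with an exact two-sided sign-flip p of 0.469 and a Benjamini-Hochberg adjusted permutation p of 0.938 over the 2 planned comparisons. Both EZH2 libraries were lower, at 0.299% of gene-body peaks against 0.908% of gene-end peaks in replicate 1 and 0.757% against 1.89% in replicate 2. Against 19987 intergenic peaks the mean difference was 0.000245 points (SD 0.104, higher in 3 of 6), with an exact permutation p of 1.0, adjusted 1.0. Neither mean difference exceeded the spread between the 6 libraries, for which the smallest possible p is 0.03125. A mean over the 6 mixes 3 kinds of library, and differences of opposite sign cancel in it. Against gene-end peaks the EZH2 libraries alone gave −0.869 points and the JARID2 libraries alone 0.113 points. With 2 EZH2 libraries the smallest exact permutation p is 0.5, so the test cannot decide on EZH2 alone. The difference from gene-end peaks was −0.844 points with no length limit and 0.0488 points with peaks under 2000 bp, and −4.34 points in the replicate 2 list alone (exact permutation p 0.0625).

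The ends of the host genes, by contrast, often carried EZH2. An EZH2 peak lay within 2 kb of an end of 21.6% of host genes in replicate 1 and 24.3% in replicate 2. Among other coding genes, weighted to the same length bins, the shares were 3.99% and 4.26%. In both replicates together 345 of 1932 host genes (17.9%) had an EZH2 peak at an end, against 630 of 18042 other genes (3.49%) and 4.88% of all coding genes. Of all gene-body peaks, 2580 (25.7%) lay in such a host gene. ITGA9, NPAS3 and KCNMA1 were the 3 of the 10 genes with the most gene-body peaks that had EZH2 at an end in both replicates. Of the 135 voltage-gated channel genes, hosts or not, 35 had EZH2 at an end in both replicates, as did 22 of 100 neurotransmitter receptor genes, 15 of 72 axon guidance genes and 11 of 49 cadherin genes. None of the 19 axonemal dyneins and none of the 60 hepatocyte genes did, although 9 and 8 of them were hosts.

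The pattern of EZH2 at gene ends held over most gene lengths. In both replicates together it was 11.5% of host genes against 3.06% of other genes from 10 to 30 kb, 13.8% against 2.18% from 30 to 100 kb, 22.5% against 1.96% from 100 to 300 kb and 26.3% against 4.89% from 300 to 1000 kb. Over 1000 kb the order turned, with 3 of 43 host genes (6.98%) against 5 of 26 other genes (19.2%). Under 10 kb there were 18 host genes, 3 of them with EZH2 (16.7%), against 5.37% of other genes.

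JARID2 peaks at gene ends were less frequent in host genes in 3 of 4 libraries. The shares were 3.73% of host genes against 4.1% of length-weighted other genes in THLE-2 replicate 1 and 4.04% against 4.65% in replicate 2. In HepG2 they were 19.8% against 25.2% in replicate 1 and 1.09% against 1.01% in replicate 2. The THLE-2 order also turned between length bins. In THLE-2 replicate 1 it was 3.69% against 4.34% from 30 to 100 kb and 3.75% against 2.69% from 300 to 1000 kb. Over all 6 libraries the mean difference was 5.22 points (SD 10.7, higher in 3 of 6), with an exact two-sided sign-flip permutation p of 0.469. The EZH2 libraries alone gave 18.8 points, higher in 2 of 2, where the smallest exact permutation p is 0.5, and the JARID2 libraries alone gave −1.57 points with an exact permutation p of 0.25. Adjusted over the 4 comparisons with a test, the permutation p was 0.625 for the gene ends. A difference between EZH2 and JARID2 was not tested. Host genes also had H3K27me3 at an end more often, in 34.4% against 3.79% of other genes in both replicates, which comes from the lists that chose them.

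**Figure D5:**
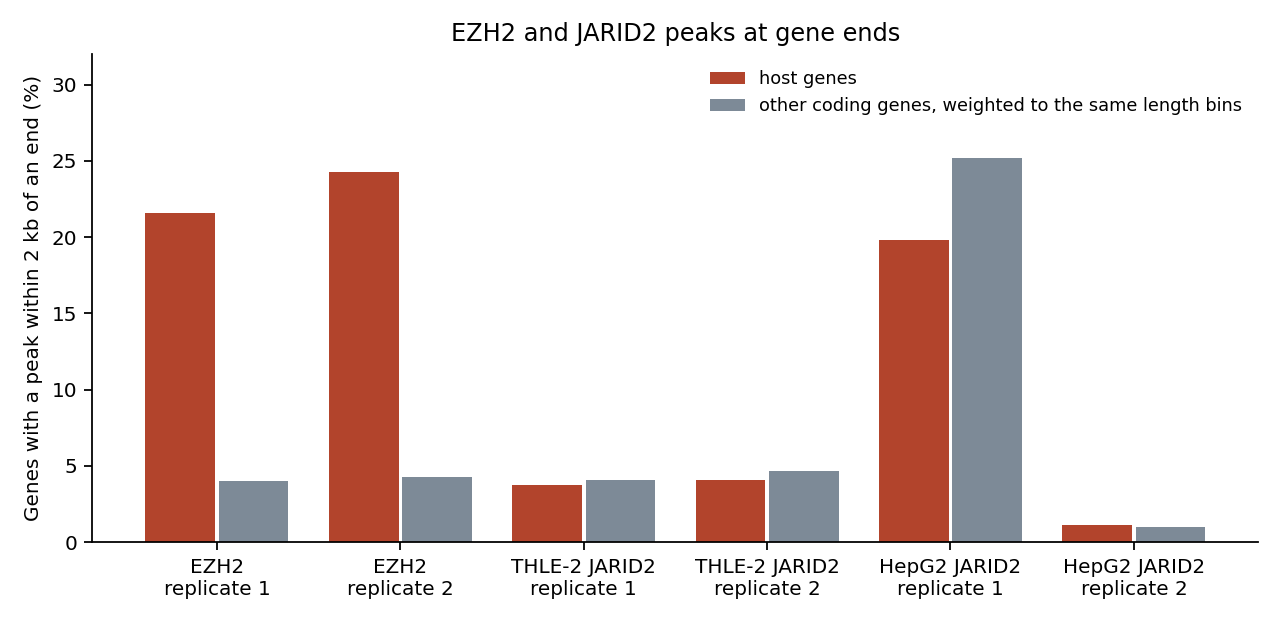
Bars show the share of genes (%) with a peak within 2 kb of an end in each EZH2 and JARID2 library, for the 1932 host genes and for other coding genes weighted to the same length bins. The EZH2 bars stand at 21.6% and 24.3% for host genes against 3.99% and 4.26%, and the host and other bars of each THLE-2 JARID2 library differ by less than 1 point.

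At the limits of the rule, the longest gene-body peak was 4999 bp (RAB11FIP4, 8.27-fold in replicate 1) and the shortest shared peak over the limit 5003 bp (BMP6, 9.81-fold). The gene-body peak nearest a gene end stood 2009 bp away (OVCH2, 8.69-fold) and the peak just outside stood 1997 bp away (OR8B8, 10.76-fold). The length limit left out 570 wide shared peaks that met the other conditions.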

How the data were processed

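ChIP-seq of 16 samples was used as the 8 peak lists the authors deposited, 1 for each IP library. Per the submitters' processing notes the tools were cutadapt and Bowtie2 (versions not given in the sources used here) and MACS 1.4.2, on GRCh38. Per the file headers each IP was called against its own input with a p cutoff of 1e-05, at most 1 tag per position and the larger library scaled down, and replicates were not pooled. The deposited lists give tag counts, a score of -10 times log10 of the p-value, the fold enrichment as a ratio and a false discovery rate in percent, all the authors' values.

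Peaks were compared with 19974 RefSeq coding genes in Python 3.11.15 with numpy 2.4.6, pandas 2.3.3 and scipy 1.17.1. Overlap meant at least 1 shared base. Interval functions and the permutation test were tested on simulated data. Overlap shares were compared over the 6 EZH2 and JARID2 libraries with exact two-sided sign-flip permutation tests. The promoter table gives strand for 79.2% of coding genes and 77.5% of host genes, too few for a check of position along the gene, which is void and not reported. The members and gene lists were chosen with earlier results of these data known, and the gene-end and internal-promoter comparisons were added after seeing the data. Genes were named by fixed rules, namely most peaks, best fold ranks, highest density, longest genes, and the leading 3 hosts of each list, with the exceptions named in the text and some genes that are not reported here. Overlapping or nested genes share peaks, which put 99 peaks in 2 or more genes. Alternatives changed the overlap, score, fold, width and end-distance limits and left out each library.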

Additional observations from a re-analysis of the deposited data

How the results depend on the processing

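The number of gene-body peaks was 10043 and moved by more than 1.5 times to 3768 with a MACS score of at least 100 in both lists and to 2126 with a fold of at least 10 in both. The number of host genes moved with them to 1140 and 818. Using 1 list alone gave 14072 to 26914 gene-body peaks, 2251 to 2985 host genes, a median host gene length of 80.5 to 87.6 kb and a density ratio of long to short genes of 1.27 to 1.57. The median host gene length, 91.0 kb, was 96.4 kb when 50% of a peak had to be covered, 106.0 kb at the score limit, 124.0 kb at the fold limit, 103.0 kb with peaks under 2000 bp and 122.0 kb with peaks more than 10 kb from gene ends, which asks for longer genes by its construction. The share of gene-body peaks under an EZH2 peak, a mean of 0.528% over 2 libraries, was 1.03% at the fold limit. None of the 4 comparisons with a permutation test passed the threshold under the alternatives that keep all 6 libraries. With fewer libraries the test cannot reach 0.05, so those alternatives give a size and no call. With the EZH2 libraries left out in turn, the mean difference at gene ends was 2.27 to 2.75 points, and leaving out a JARID2 library gave 6.25 to 7.34. Between 11 and 15 of the 19 gene lists lay above their comparison share under the alternatives, against 12 as reported. Scaffold, adhesion receptor, ADAM and sarcomere lists changed side under at least 1 of 6 settings, and the other 15 kept theirs. No paired analysis was possible because the results are counts of peaks in the deposited lists with no fit across replicates, and replicate numbers of different targets name no shared culture in the labels. Depth was lowest in the JARID2 libraries, and its effect on the lists was not tested.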
